A study of Homo sapiens with 18 samples.

Results

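RHOXF1, RHOXF2 and RHOXF2B are the human genes of the reproductive homeobox (RHOX) family, and the first of them and RHOXF2 were the genes introduced in this study. All rows of the expression table that carry any of these 3 symbols were taken: 3 transcript clusters of the 33297 on the array, where a transcript cluster is the set of probes that the array summarises into 1 value for a gene. Cluster 8174755 lists RHOXF1 alone (Entrez 158800). Clusters 8169676 and 8174750 both list RHOXF2B (Entrez 727940) and RHOXF2 (Entrez 84528), and held the same value on all 18 arrays, so they are described as 1 row, RHOXF2/RHOXF2B. The array thus gives 2 separate readings for the 3 genes. All groups were the human embryonic kidney line HEK293, transiently transfected with a lipid reagent. RNA was taken from cells given a RHOXF1 expression vector, a RHOXF2 expression vector or a control vector, 24 h or 48 h after transfection, with 3 arrays in each of the 6 groups and no untransfected cells among them. The treatment text lists wild-type RHOXF1 and RHOXF2 plasmids beside pCMV6-AC-GFP, without naming the promoter or saying which plasmid the control cells received. The labels call the arrays of a group biological triplicates without saying whether these were separate cultures on separate days, so the p values measure the spread between these arrays.

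RHOX proteins are homeodomain transcription factors of the PRD (paired-like) class, encoded side by side on the X chromosome. They are known from the germ line: in humans RHOXF1 and RHOXF2 are made mainly in the testis, and RHOXF2 is counted among the cancer/testis genes, which are silent in most adult tissues and can be switched on in tumours. In mouse the larger Rhox cluster is kept silent outside reproductive tissues in part by DNA methylation. RHOXF2B is a near-identical copy of RHOXF2 on the same chromosome.

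The sequences before the start sites are shown because RHOXF2 and RHOXF2B, which share their array rows, also share theirs, and because RHOXF1 and RHOXF2 hold different numbers of CG dinucleotides. They are the 250 bases upstream of each start in the RefSeq promoter table (GRCh38.p14), which held all 3 genes. RHOXF1 lies at chrX:120115914-120116163 on the minus strand, RHOXF2 at chrX:120158363-120158612 on the plus strand and RHOXF2B at chrX:120077691-120077940 on the minus strand. The RHOXF1 window falls inside the longer gene span that RefSeq gives for RHOXF1. The same annotation places an antisense RNA, RHOXF1-AS1, across RHOXF1 and RHOXF2B. Capitals mark CG dinucleotides, the possible sites of DNA methylation, which was not measured here.
RHOXF1: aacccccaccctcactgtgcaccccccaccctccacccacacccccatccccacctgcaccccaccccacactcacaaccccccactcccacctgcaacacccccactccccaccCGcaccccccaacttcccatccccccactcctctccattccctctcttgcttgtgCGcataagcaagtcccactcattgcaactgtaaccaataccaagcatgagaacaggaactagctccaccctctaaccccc
RHOXF2: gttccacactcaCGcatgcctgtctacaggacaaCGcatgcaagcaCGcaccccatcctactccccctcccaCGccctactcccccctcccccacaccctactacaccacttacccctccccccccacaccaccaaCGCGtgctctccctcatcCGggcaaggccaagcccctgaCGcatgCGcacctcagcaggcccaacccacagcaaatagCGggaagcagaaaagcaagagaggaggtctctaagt

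RHOXF2B has the same letters as RHOXF2 at 250 of 250 positions of this window. RHOXF2 and RHOXF2B each hold 10 CG dinucleotides there and RHOXF1 holds 2, against a median of 11 over the 35116 windows of the table; 22.9% of all windows have 2 or fewer. Cytosine makes up 54% of the RHOXF1 window and 45.2% of the RHOXF2 window. The homeodomain core TAAT, searched on both strands, was found in neither window, while 47.4% of all windows hold it. A heat shock element core, GAANNTTC, was likewise found in neither window and occurs in 5.78% of all of them. The absence of these letters from a short window says nothing about binding of a factor elsewhere.

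Levels are log2 values after the authors' RMA normalization, on which 1 unit is a doubling of signal. Array medians over all clusters ran from 6.68 to 6.82, and replicate arrays correlated at 0.990 to 0.996 across clusters. On the first principal component of the named clusters (34.1% of the variance), the 24 h arrays lay between -17.2 and -8.71 and the 48 h arrays between 9.36 and 26.3. The RHOXF2-transfected replicate 3 of 48 h was the exception, with a score of -4.48. Array numbers run in separate blocks for the times, so time and array run cannot be told apart. Of the markers of HEK293, NEFL, NEFM, VIM, KRT8, KRT18 and EEF1A1 were at or above percentile 67.2 of all named clusters on every array. NEFH (at most 24.8) and PAX2 (at most 40.4) were low. PTPRC, CD3E, ALB and PECAM1, which mark blood cells, liver and endothelium, stayed at or below percentile 19.1, while CD14 and MYH6 reached 29.7 and 25.7, and COL1A1 ran from 53.3 to 59.1. The germ cell markers DDX4, DAZL and MAGEA4 stayed at or below percentile 24.5, and among Sertoli cell markers FSHR was at most 12.2 while AMH ran from 53.7 to 60.3.

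**Figure D1:**
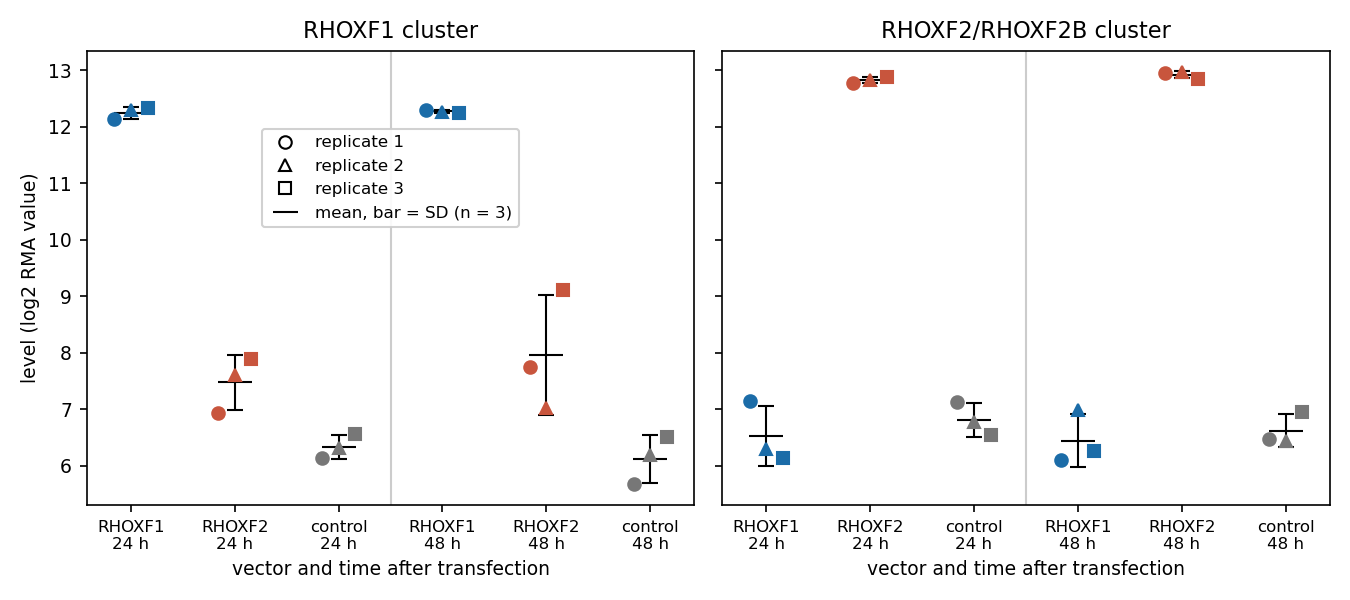
Level (log2 RMA value) of the RHOXF1 cluster, left, and the RHOXF2/RHOXF2B cluster, right, on each of the 18 arrays by vector and time; symbols are replicates, horizontal lines group means and bars SD (n = 3). Each cluster lies above 12 in cells given its own vector, and only the RHOXF1 cluster lies apart from control in cells given the other vector.

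In RHOXF1-transfected cells RHOXF1 read 12.13, 12.29 and 12.32 at 24 h, against 6.13, 6.32 and 6.56 in control cells. At 48 h it read 12.29, 12.27 and 12.25 in RHOXF1-transfected cells, against 5.67, 6.20 and 6.51 in control cells. The lowest array with the RHOXF1 vector read 12.13, and the highest of all arrays with another vector read 9.12. The mean was 12.25 ± 0.10 (SD, n = 3) in RHOXF1 cells and 6.34 ± 0.21 in control cells at 24 h, and 12.27 ± 0.02 in RHOXF1 cells and 6.13 ± 0.42 in control cells at 48 h. By limma, RHOXF1 rose 60.2-fold at 24 h (95% interval 36.4 to 99.3, adjusted p = 1.78e-08) and 70.7-fold at 48 h (42.8 to 117, adjusted p = 9.06e-09). Of the named clusters tested, 0.00471% were called at 24 h, which was RHOXF1 alone, and 0.00943% at 48 h, RHOXF1 included. All 3 RHOXF1 arrays lay above all 3 control arrays of the same time in 4.6% of clusters at 24 h, 7.17% at 48 h and 0.622% at both times.

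RHOXF2/RHOXF2B also rose under its own vector. It read 12.78, 12.83 and 12.87 in RHOXF2-transfected cells at 24 h, against 7.12, 6.77 and 6.54 in control cells. At 48 h it read 12.95, 12.96 and 12.85 in RHOXF2-transfected cells, against 6.47, 6.44 and 6.95 in control cells. The 6 arrays with the RHOXF2 vector lay between 12.78 and 12.96, and the 6 control arrays between 6.44 and 7.12. The rise was 64.6-fold at 24 h (95% interval 46.3 to 90.3, limma adjusted p = 4.96e-12) and 78.6-fold at 48 h (56.2 to 110, adjusted p = 2.17e-12). Calls over all clusters were 0.00943% at 24 h, where the 2 identical RHOXF2/RHOXF2B rows were the only calls, and 0.0943% at 48 h, those rows included. The cluster ranked first among 21214 by log2 change in both comparisons, as RHOXF1 did in both of its own.

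The introduced transcripts were among the brightest signals on their arrays. RHOXF1 lay between percentiles 98.6 and 99.1 in RHOXF1-transfected cells, and RHOXF2/RHOXF2B between 99.6 and 99.7 in RHOXF2-transfected cells. Array signal can be compressed at this height, so the folds describe array values and not transcript numbers, and the 2 clusters are not set against each other because their probes differ. In control cells RHOXF1 lay between percentiles 24.6 and 37.3 and RHOXF2/RHOXF2B between 35.1 and 44.8. A cluster value does not separate vector transcripts from those of the chromosomal gene, nor more transfected cells from more RNA in each.

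No difference between the times in the introduced levels passed the test. RHOXF1 in RHOXF1-transfected cells was 0.02 higher at 48 h than at 24 h (95% interval -0.70 to 0.75, limma adjusted p = 0.982), while 4.42% of clusters were called in that comparison. RHOXF2/RHOXF2B in RHOXF2-transfected cells was 0.09 higher at 48 h (-0.39 to 0.58, adjusted p = 0.889; 1.24% of clusters called). In control cells, where 17.8% of clusters were called between the times, RHOXF1 differed by -0.21 (adjusted p = 0.699) and RHOXF2/RHOXF2B by -0.19 (adjusted p = 0.591). The excess over control at 48 h minus that at 24 h was 0.23 for RHOXF1 under its own vector (-0.79 to 1.26, adjusted p = 0.980) and 0.28 for RHOXF2/RHOXF2B (-0.40 to 0.96, adjusted p = 0.810). The tests of the excess at 48 h minus that at 24 h called 0% and 0.0141% of clusters. The intervals between the times reach 1.68-fold for RHOXF1 and 1.49-fold for RHOXF2/RHOXF2B, and do not show equal levels. Their width rests on 1 spread shared by all 6 groups, with an SE of 0.345 for RHOXF1 and 0.230 for RHOXF2/RHOXF2B. With only the compared groups fitted the SE was 0.077 and 0.084, and neither was called (limma adjusted p = 0.891 and 0.650).

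RHOXF1 also read higher in cells given the RHOXF2 vector. It read 6.94, 7.61 and 7.89 in RHOXF2-transfected cells at 24 h, against 6.13, 6.32 and 6.56 in control cells. At 48 h it read 7.75, 7.03 and 9.12 in RHOXF2-transfected cells, against 5.67, 6.20 and 6.51 in control cells. All 6 RHOXF2 arrays lay above all 6 control arrays. All 3 RHOXF2 arrays lay above all 3 control arrays of the same time in 3.89% of clusters at 24 h, 6.59% at 48 h and 0.382% at both times. The share of clusters with all 6 above all 6 was not computed.

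With the times taken one by one, the RHOXF1 level in RHOXF2-transfected cells was 1.14 above control at 24 h (95% interval 0.42 to 1.87, limma adjusted p = 0.449) and rose by 1.84 at 48 h (1.12 to 2.56, adjusted p = 0.0462). By size it was the third highest change of 21214 at 24 h and the fifth highest at 48 h, both identical RHOXF2/RHOXF2B rows counted. The 2 changes differed by 0.70 (-0.33 to 1.72, adjusted p = 0.662), so a change with time was not shown. That difference rests on single RHOXF2 arrays: it was 0.12 without replicate 3 of 48 h, 1.17 without replicate 2 of 48 h and 0.43 without replicate 1 of 24 h (adjusted p = 0.977, 0.424 and 0.865). Over both times the reading rose by 1.49, or 2.81-fold (95% interval 1.97 to 4.01, adjusted p = 0.0119), a comparison in which 0.0754% of clusters were called. An exact permutation test of the vector labels within each time, two-sided over 400 arrangements, gave p = 0.005 for this value, the smallest it can give, and 0.00667 after adjustment over the 4 values tested in this way. At a single time 3 arrays against 3 cannot go below 0.10, and both times gave 0.10. The permutation test treats the arrays of a time as exchangeable. Same-numbered arrays at 24 h deviated together in 8 of 9 pairs (residual r above 0.1), which this test does not take into account. On a linear scale the RHOXF1 signal in RHOXF2-transfected cells was 3.67% of that in RHOXF1-transfected cells at 24 h and 5.06% at 48 h, while control cells had 1.66% and 1.41%.

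**Figure D2:**
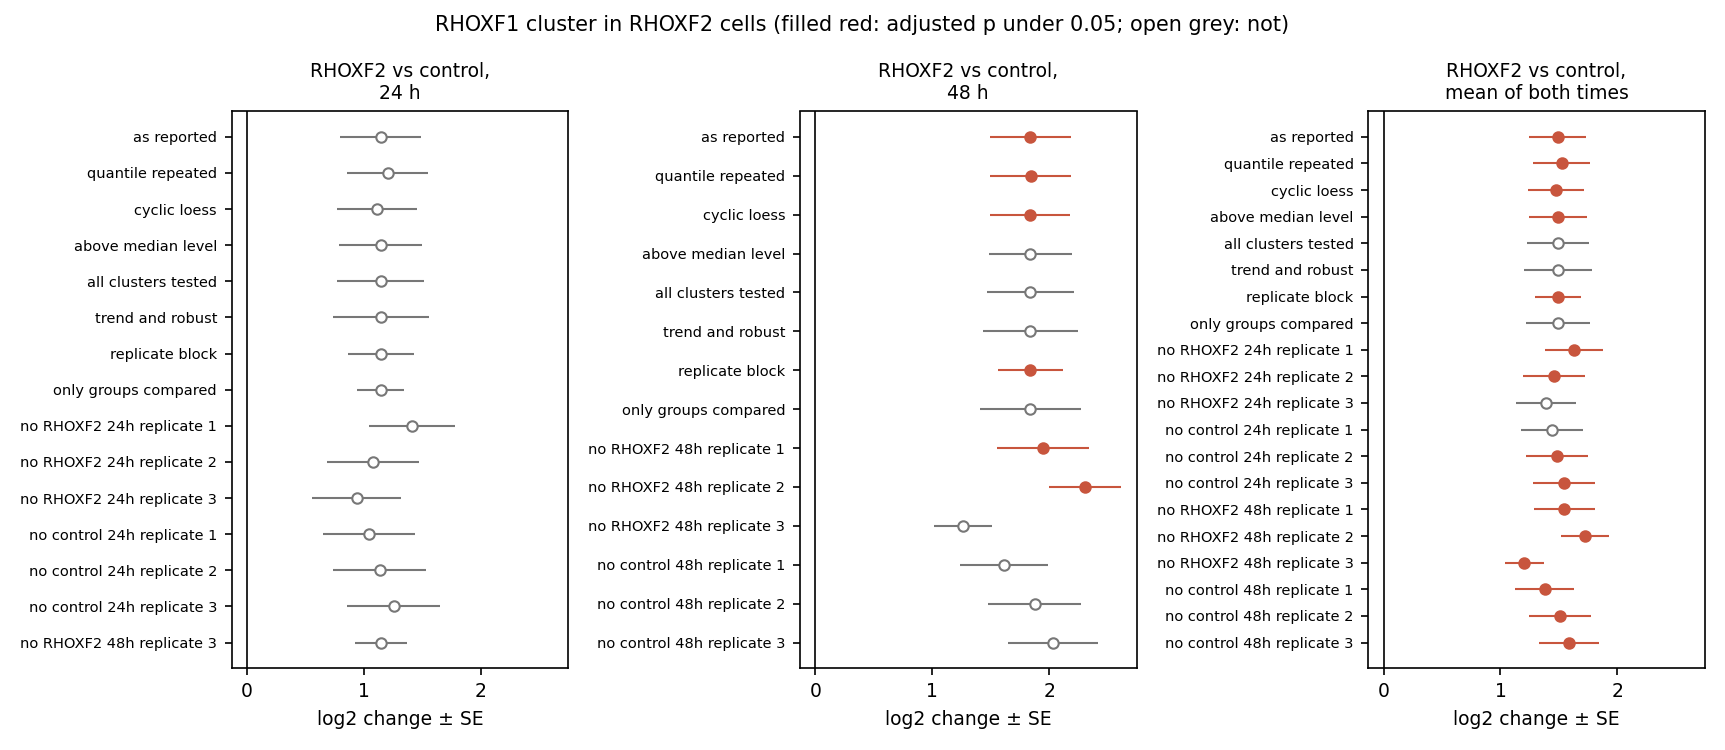
Log2 change of the RHOXF1 cluster in RHOXF2-transfected cells against control (x axis, points with SE) at 24 h, at 48 h and as the mean of both times, as reported and under each other setting (y axis). Every point lies above 0; filled points have an adjusted p under 0.05, and at 48 h leaving out RHOXF2 replicate 3 gave the lowest value, 1.26.

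One array carried much of the 48 h value. RHOXF1 in RHOXF2 replicate 3 at 48 h, 9.12, lay 1.37 above the next array of its group, the third largest such gap among 21214 clusters, and that array also stood apart from the other 48 h arrays on the first principal component of the named clusters, though not on that of all clusters, where it scored 16.1. The RHOXF2/RHOXF2B reading there, 12.85, was the lowest of its group, at -0.10 from the next. Without that array the RHOXF1 change at 48 h was 1.26 (adjusted p = 0.0998) and the mean of both times 1.20, which was still called. Each control array of 48 h also decided that call: the change was 1.61 without replicate 1 (adjusted p = 0.0551), 1.88 without replicate 2 (adjusted p = 0.148) and 2.03 without replicate 3 (adjusted p = 0.0565). The call on both times was lost without RHOXF2 replicate 3 at 24 h (1.39, adjusted p = 0.0590) or control replicate 1 at 24 h (1.44, adjusted p = 0.0567). The spread of RHOXF1 was itself unequal: its SD was 1.06 in RHOXF2-transfected cells at 48 h and 0.49 at 24 h, and 0.02 and 0.10 in RHOXF1-transfected cells at those times. Its residual SD over the groups, 0.516, was above that of 99.8% of clusters, whose median was 0.127. RHOXF2/RHOXF2B also spread widely, with a residual SD of 0.338, above that of 98.8% of clusters. The SD of RHOXF2/RHOXF2B was 0.54 at 24 h and 0.47 at 48 h in RHOXF1-transfected cells. In RHOXF2-transfected cells it was 0.05 and 0.06.

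RHOXF2/RHOXF2B was not called in RHOXF1-transfected cells. It read 7.14, 6.30 and 6.15 in RHOXF1-transfected cells at 24 h, against 7.12, 6.77 and 6.54 in control cells, and at 48 h 6.09, 6.98 and 6.25 in RHOXF1-transfected cells, against 6.47, 6.44 and 6.95 in control cells. The groups overlapped at both times. In a comparison that called 0.00471% of clusters, which was RHOXF1 alone, the mean of both times was -0.23 (95% interval -0.57 to 0.11, limma adjusted p = 0.783, exact permutation p = 0.33). With 1 array left out this mean ran from -0.39 without RHOXF1 replicate 1 of 24 h (exact permutation p = 0.1) to -0.14 without RHOXF1 replicate 3 of 24 h (exact permutation p = 0.56). Its linear signal in RHOXF1-transfected cells was 1.27% and 1.12% of that in RHOXF2-transfected cells, and in control cells 1.55% and 1.27%, at 24 h and 48 h. Whether this differs from the RHOXF1 reading in RHOXF2-transfected cells was not tested, since the probes differ.

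Set against each other, the transfections separated in both clusters. RHOXF1 was higher in RHOXF1- than in RHOXF2-transfected cells by 4.77 at 24 h (95% interval 4.04 to 5.49, limma adjusted p = 2.41e-07) and by 4.30 at 48 h (3.58 to 5.03, adjusted p = 1.34e-06). RHOXF2/RHOXF2B was lower in RHOXF1-transfected cells, with a difference of -6.30 at 24 h (adjusted p = 2.16e-12) and -6.48 at 48 h (adjusted p = 1.30e-12). Calls over all clusters were 0.0141% at 24 h, where RHOXF1 and the 2 identical RHOXF2/RHOXF2B rows were the only calls. At 48 h they were 0.0519%, those rows included. The order of the group means for RHOXF1 at each time was RHOXF1-transfected, RHOXF2-transfected and control; at 24 h the difference within the lower pair did not pass the limma test. For RHOXF2/RHOXF2B the difference between RHOXF1-transfected and control cells did not pass it at either time.

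No neighbour of the RHOX genes on the X chromosome was called. The 15 protein-coding genes on either side in the RefSeq order have 21 clusters, and 0 were called in any of the 4 comparisons with control; at an unadjusted p under 0.05, limma had 1 and 3 at 24 h and 0 and 1 at 48 h, for RHOXF1 and then RHOXF2. Over all clusters 4.76%, 7.99%, 7.22% and 12.2% had such a p in RHOXF1 at 24 h, RHOXF2 at 24 h, RHOXF1 at 48 h and RHOXF2 at 48 h. The neighbours' changes ran from -0.32 to 0.26 over these comparisons. With RHOXF1 the higher count was 10 of 21 at 24 h (50.1% of all clusters were higher) and 8 of 21 at 48 h (52.6% of all). With RHOXF2 it was 13 of 21 at 24 h, with a median of 0.04 (48.8% of all), and 8 of 21 at 48 h, with a median of -0.04 (53.9% of all). With quantile normalization repeated, all 4 counts were 10 of 21. The nearest measured genes, named for their place after the values were seen, were NKAP, a transcriptional repressor linked to Notch signalling, and ZBTB33, which encodes the methyl-CpG binding protein Kaiso. In RHOXF1-transfected cells NKAP read -0.06 from control at 24 h and -0.12 at 48 h, and in RHOXF2-transfected cells -0.03 and -0.16 (SE 0.08, limma adjusted p = 0.458 or above). ZBTB33 read 0.14 above control with RHOXF1 and 0.06 with RHOXF2 at 24 h, and -0.08 and -0.13 from it at 48 h (SE 0.07, adjusted p = 0.522 or above). The neighbours with the smallest p were UBE2A, a ubiquitin-conjugating enzyme (0.26, RHOXF1 at 24 h), KIAA1210 (-0.26, RHOXF2 at 24 h), MCTS1, a translation factor (-0.21, RHOXF1 at 48 h), and SEPTIN6, a septin of the cytoskeleton (-0.32, RHOXF2 at 48 h).

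**Figure D3:**
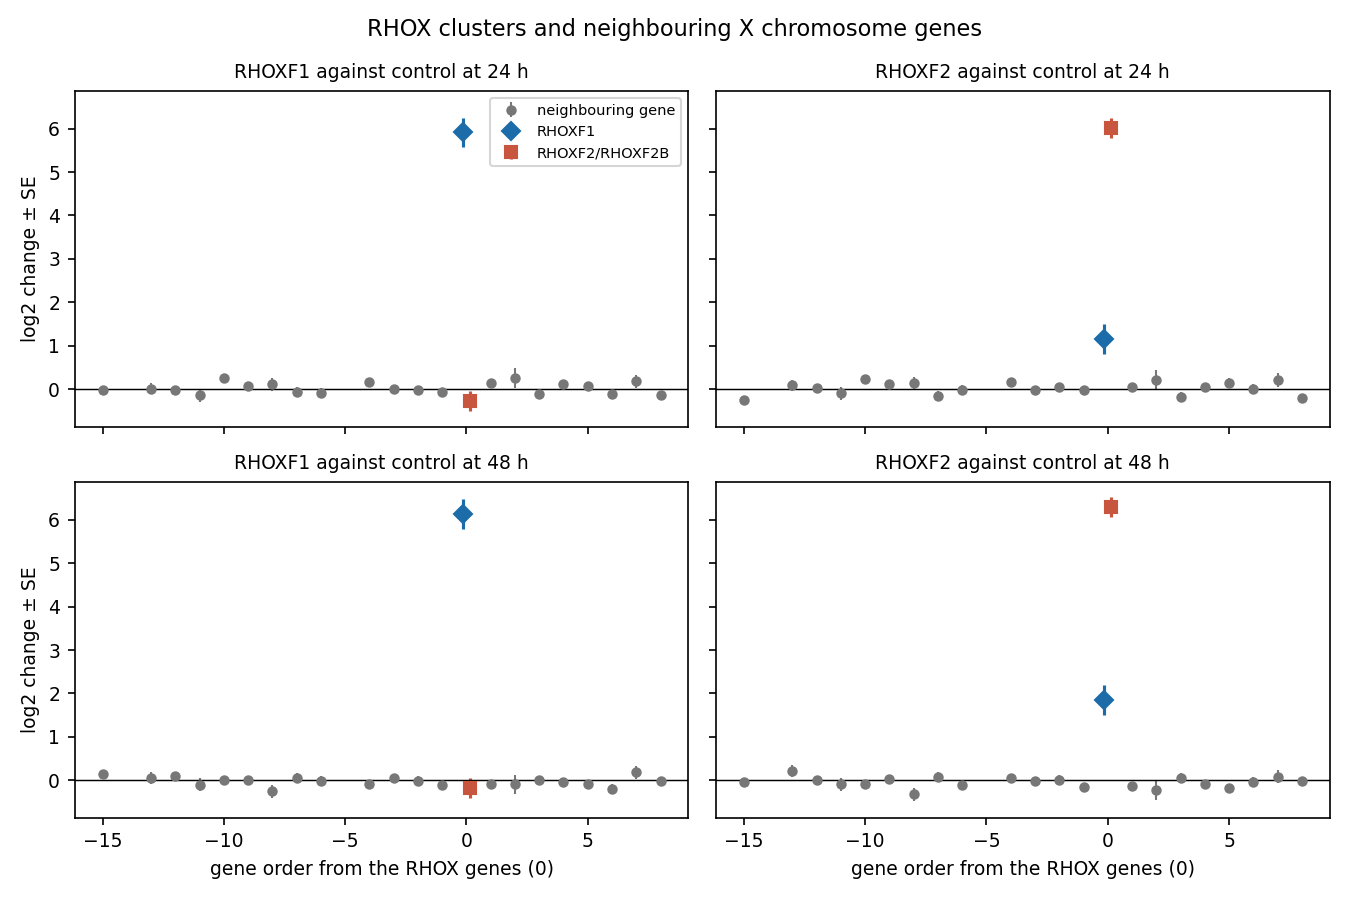
Log2 change with SE (y axis) of the 21 measured neighbouring genes, by their order from the RHOX genes (x axis, 0 marks the RHOX genes), and of the 2 RHOX clusters in the 4 comparisons with control. Neighbours lie between -0.32 and 0.26, while each introduced gene lies at 5.91 or above and RHOXF1 at 1.14 and 1.84 in RHOXF2-transfected cells.

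Other PRD-class homeobox genes, the class to which the RHOX proteins belong, were mostly dim: 30 of the 39 measured lay below the median level of all clusters. In the 4 comparisons with control 0 of 39 were called. At an unadjusted p under 0.05 there were 3 with RHOXF1 at 24 h, 5 with RHOXF2 at 24 h, 2 with RHOXF1 at 48 h and 3 with RHOXF2 at 48 h. Over all clusters 4.76%, 7.99%, 7.22% and 12.2% had such a p in that order. The median change of the PRD-class genes was -0.06, -0.05, 0.04 and 0.05 in that order, and the second of these was -0.01 with quantile normalization repeated and -0.0018 with cyclic loess. The third was -0.02 over the 9 members above the median level. Over all clusters the medians were 0.0004, -0.0032, 0.0080 and 0.0128. The higher counts were 10, 14, 24 and 25 of 39, against 50.1%, 48.8%, 52.6% and 53.9% of all clusters. Dim clusters in general read lower at 24 h. In the 2 dimmest of 5 equal bins of all clusters the medians were -0.05 and -0.06 with RHOXF1. With RHOXF2 they were -0.06 and -0.09. The smallest p belonged to RAX2, a retinal homeobox gene, with RHOXF1 at 24 h (-0.24 ± 0.10 SE, limma adjusted p = 0.961), and to NOBOX, an oocyte homeobox gene, with RHOXF2 at 24 h (-0.36 ± 0.08, adjusted p = 0.333). At 48 h it belonged to PAX6, a regulator of eye development, with RHOXF1 (-0.22 ± 0.09, adjusted p = 0.631), and to DPRX, a homeobox gene of the early embryo, with RHOXF2 (-0.40 ± 0.11, adjusted p = 0.213).

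X-linked cancer/testis genes, the wider group of RHOXF2, gave 65 measured clusters, 62 of them below the median level of all clusters and 15 shared by several gene copies. In none of the 4 comparisons was a member called by limma. Of the 65, 2, 11, 4 and 5 had an unadjusted p under 0.05 with RHOXF1 at 24 h, RHOXF2 at 24 h, RHOXF1 at 48 h and RHOXF2 at 48 h. Over all clusters 4.76%, 7.99%, 7.22% and 12.2% had such a p in that order. At 24 h the median of the cancer/testis genes was -0.08 with RHOXF1 (19 of 65 higher) and -0.13 with RHOXF2 (13 of 65 higher), against a median of 0.00 for all clusters in each. Dim clusters in general read lower at that time: in the dimmest of 5 equal bins of all clusters 33.2% were higher with RHOXF1 and 29% with RHOXF2. The medians of that bin were -0.05 and -0.06. The list medians at 24 h were -0.04 and -0.09 with quantile normalization repeated, and -0.03 and -0.07 with cyclic loess. With RHOXF2 at 24 h, 6 and 4 of the 65 had an unadjusted limma p under 0.05 in these 2 settings. Over all clusters 5.96% and 5.70% did. At 48 h the medians were -0.02 with RHOXF1 (28 of 65 higher, against 52.6% of all clusters) and 0.02 with RHOXF2 (41 of 65 higher, against 53.9% of all). With quantile normalization repeated, 37 of 65 were higher with RHOXF1, with a median of 0.01, and 50 of 65 with RHOXF2, while the shares over all clusters also went up, to 57.4% and 62.5%. MAGEB3, of the MAGE family, had the smallest p in 3 comparisons, at -0.32 with RHOXF1 at 24 h, 0.37 with RHOXF1 at 48 h and 0.38 with RHOXF2 at 48 h (adjusted p = 0.961, 0.537 and 0.253). TEX13B had it with RHOXF2 at 24 h (-0.28, adjusted p = 0.449).

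The clusters most like each RHOX row were taken by Pearson r over the 18 arrays, after the mean of each time was removed, among 19459 clusters with a single symbol. These r describe the pattern on arrays that share vectors and runs, and carry no p. For RHOXF1 they were LLGL1, a cell polarity gene (0.85), RPS23, a ribosomal protein gene (0.85), CCN2, a secreted matrix protein and YAP target (0.85), SNAI1, a repressor of epithelial genes (0.83), and SGK1, a serum-regulated kinase (0.82). None was called in either comparison of RHOXF1 with control; the changes were 0.17 to 0.53 at 24 h (adjusted p = 0.961 for each) and 0.17 to 0.58 at 48 h (adjusted p = 0.388 to 0.664). SNAI1 read 6.73, 6.84 and 6.89 in RHOXF1-transfected cells at 24 h, against 6.47, 6.14 and 6.27 in control cells. At 48 h it read 6.66, 7.05 and 6.88 in RHOXF1-transfected cells, against 6.64, 6.05 and 6.17 in control cells, with control replicate 1 just under the lowest RHOXF1 array. SNAI1 was picked for following RHOXF1 across these same groups, so that its groups lie apart is part of the choice. The lowest r belonged to PIK3CG (-0.84), FAM186A (-0.78) and JAZF1 (-0.78).

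For RHOXF2/RHOXF2B the most similar clusters were ELMO1, an engulfment and cell motility adaptor (0.82), ANKRD1, an ankyrin repeat protein and YAP target (0.81), HSPA6, a strictly inducible HSP70 gene (0.80), MIR200B, a microRNA gene (0.79), and BAG3, a co-chaperone (0.78). At 24 h no member of this group was called in RHOXF2-transfected cells, with changes of 0.23 to 0.88 (adjusted p = 0.394 to 0.561). At 48 h in RHOXF2-transfected cells ANKRD1 rose by 2.43 (limma adjusted p = 1.88e-06), HSPA6 by 1.98 (0.00359) and BAG3 by 0.57 (0.0489), while ELMO1 read 0.32 and MIR200B 0.31 above control (adjusted p = 0.236 for each). Over all clusters 0.0943% were called with RHOXF2 at 48 h. These similar clusters were picked for following RHOXF2/RHOXF2B across these same groups, so that their groups lie apart is part of the choice. BAG3 was no longer called when RHOXF2 replicate 2 (adjusted p = 0.115) or 3 (adjusted p = 0.433) of that time was left out, nor when control replicate 2 (adjusted p = 0.207) or 3 (adjusted p = 0.165) was, nor with a replicate block (adjusted p = 0.0617). The lowest r belonged to KRT17P5 (-0.80), IGKC (-0.78) and IRX5 (-0.76), none of them called. By Spearman's rho the order differed: ELMO1 kept 0.79, while MIR200B had 0.68, ANKRD1 0.66, BAG3 0.62, HSPA6 0.60 and IRX5 -0.53, and many other clusters then ranked above HSPA6.

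**Figure D4:**
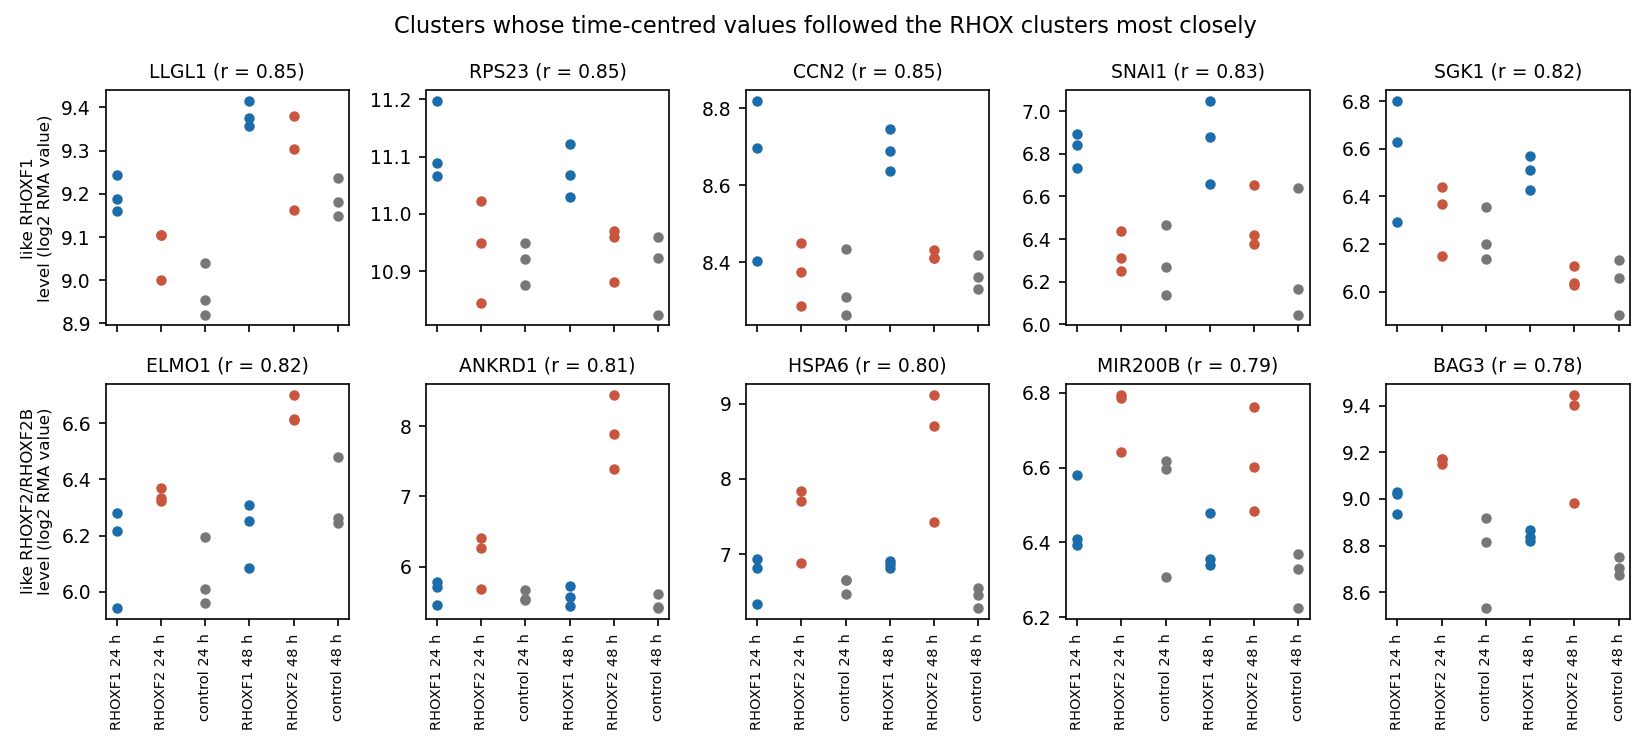
Level (log2 RMA value, y axis, a separate scale in each panel) by vector and time (x axis) on the 18 arrays for the 5 clusters most like RHOXF1, top, and most like RHOXF2/RHOXF2B, bottom; r is over the 18 arrays with time means removed. ANKRD1 and HSPA6 reach their highest levels in RHOXF2-transfected cells at 48 h.

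Within the RHOXF2-transfected cells the order of the arrays by RHOXF1 had no constant relation to that by ANKRD1 and HSPA6. At 24 h, for replicates 1, 2 and 3, RHOXF1 read 6.94, 7.61 and 7.89, HSPA6 read 6.89, 7.70 and 7.84, and ANKRD1 read 5.68, 6.40 and 6.27, so replicate 1 was lowest in all of them. At 48 h RHOXF1 read 7.75, 7.03 and 9.12, ANKRD1 read 7.90, 8.45 and 7.39, and HSPA6 read 8.70, 9.12 and 7.43, the reverse order. BAG3 read 8.98, 9.40 and 9.45 in these arrays of 48 h. With 3 arrays no test of these orders was made.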

How the data were processed

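Expression was measured on 18 Affymetrix arrays, 1 per RNA sample. The platform annotation and the sample descriptions are those of a Human Gene ST array; an exon array is given in the study's design text. The deposited values are log2 RMA expression values from Affymetrix Expression Console 3.1, per the labels; the genome build behind the clusters is not given in the sources used here. Gene symbols came from the platform annotation supplied with the series. The 21214 clusters with a symbol entered 1 model in R 4.3.3 with limma 3.58.1 (functions lmFit and eBayes, 1 mean per group, 12 residual degrees of freedom), two-sided, with Benjamini-Hochberg adjustment over all of them at 0.05; no filter on dim clusters was applied. Both identical RHOXF2/RHOXF2B rows were among these clusters, so they count separately in the shares called and in the ranks. Intervals are 95% moderated intervals, and the number of arrays limits the precision. The fit was tested on simulated data. Promoter windows and gene order came from RefSeq (GRCh38.p14).

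The members, lists and tests were chosen with earlier results of these data known. Genes named were the RHOX genes, the 5 most and 3 least similar clusters to each, and from each list those called and the smallest p in each comparison with control; a gene with several clusters was read by its brightest. Same-numbered arrays deviated together (residual r above 0.1) in 8 of 9 pairs at 24 h and 2 of 9 at 48 h. A block was to be used only if every pair did, so the reported model has none; the closing section gives the RHOX values with it, and the lists were not refitted with it. Other settings were repeated quantile normalization, cyclic loess, a filter on dim clusters, all clusters tested, another variance prior, fewer groups, a replicate block and each array left out.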

Additional observations from a re-analysis of the deposited data

How the results depend on the processing

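Under the other settings, 185 of 192 values of the RHOX clusters kept their direction where called and their side of the threshold, as did 198 of 204 with 1 array left out; all the others were RHOXF1 in RHOXF2-transfected cells, and no called value changed sign. At 48 h its change of 1.84 lost its call with clusters above the median level (adjusted p = 0.0510), with all clusters of the table tested (adjusted p = 0.166), with a trended and robust variance prior (adjusted p = 0.164) and with only the compared groups fitted (adjusted p = 0.648). The mean of both times, 1.49, lost its call with all clusters tested (adjusted p = 0.0962), the other prior (adjusted p = 0.184) and only the compared groups (adjusted p = 0.115). In these settings the estimate at 48 h stayed 1.84. Its SE was 0.345 as reported, and 0.354, 0.374, 0.410 and 0.434 in the order given for 48 h. The filter and the fits of the compared groups used fewer clusters or arrays. Beyond these values the cause was not tested. With 1 array left out the values ran from 1.26 to 2.31 at 48 h and from 1.20 to 1.73 for both times. A replicate block within each time, not fitted for 48 h against 24 h under 1 vector, gave 1.84 at 48 h (adjusted p = 0.0122), 1.49 for both times (adjusted p = 0.00378) and 1.14 at 24 h (adjusted p = 0.354), and changed no call of the RHOX clusters. The exact permutation p for RHOXF1 in RHOXF2-transfected cells was 0.005 or 0.01 throughout. With the groups fully apart this p lies at or near the smallest the test can give, so it does not measure how steady the rise is. Chosen after the data were seen, a further setting left RHOXF2 replicate 3 at 48 h out of the fit of the other groups. It covered only comparisons that do not use that array's group, and there no call of the RHOX clusters changed. It cannot bear on the RHOXF1 call in RHOXF2-transfected cells at 48 h, which was lost without that array (1.26, limma adjusted p = 0.0998). List medians moved by less than the SD of the list's median across arrays. That SD was 0.084 for PRD-class genes, 0.097 for cancer/testis genes and 0.115 for neighbours. It does not measure the uncertainty of a change between groups. Some medians changed sign: that of the neighbours with RHOXF2 at 24 h went from 0.040 to -0.0007 with quantile normalization repeated. Without removal of time means, LLGL1 correlated with RHOXF1 at 0.61 and JAZF1 at -0.67, and ELMO1 with RHOXF2/RHOXF2B at 0.70, IGKC at -0.58 and IRX5 at -0.65; the clusters most like RHOXF2/RHOXF2B also depend on whether Pearson's r or Spearman's rho is used.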
